A study of Macaca mulatta with 36 samples.

Results

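The genes described here are transporters that carry neurotransmitters and amino acids across the cell membrane or into synaptic vesicles, read in the hippocampus of rhesus macaques with simian immunodeficiency virus encephalitis (SIVE) and of uninfected controls. A gene belongs to the set if a probe set with a single gene symbol names it as a member of the solute carrier families SLC1, SLC6, SLC7, SLC17, SLC18, SLC32, SLC36 or SLC38. Each gene is read by the probe set with its highest mean over all arrays. This gave 54 of the 14132 named genes on the array, among them 6 glial transporters, 8 neuronal transporters of the plasma membrane, 6 neuronal vesicular transporters, 4 transporters of blood and fluid barriers and 30 other, general ones. The 54 genes have 85 probe sets, and 20 of them have more than 1. One of the general genes, SLC7A6OS, carries a matching symbol but is named for its place on the opposite strand of a transporter gene and is not a transporter itself. A further 14 genes of these families have no probe set of their own symbol in the table used and are not analysed here, among them the vesicular GABA transporter SLC32A1, the serotonin transporter SLC6A4, the neuronal glutamate transporter SLC1A1, the vesicular glutamate transporter SLC17A6 and the glial transporter SLC7A10.

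Transmitter signals at most synapses end when a transporter removes the transmitter from the gap between cells. Astrocytes take up most of the glutamate of the forebrain, chiefly through SLC1A2, turn it into glutamine and hand that back to neurons, which load new glutamate into vesicles. The cystine and glutamate exchanger SLC7A11 works the other way for glutamate, letting it out in exchange for cystine, the building block of glutathione. In inflamed tissue, macrophages and microglia use transporters of the SLC7 family for arginine and other cationic amino acids.

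The study compared 9 male macaques with SIVE, a brain inflammation of animals infected with simian immunodeficiency virus, with 9 uninfected male controls. Hippocampal RNA from each animal was read on 2 Affymetrix arrays, 36 in all, labelled as technical replicates. Among the SIVE animals, SIVE 1 to SIVE 4 carry an anti-CD8 label, an antibody given to macaques to remove CD8 T cells, and were all 6 years old, while the 5 untreated ones, SIVE 5 to SIVE 9, were 2 to 5 years old. Among the controls, Control 8 and Control 9 carry the anti-CD8 label and were 4 and 3 years old, while the 7 untreated ones, Control 1 to Control 7, were 3 to 8 years old. No infected animal without encephalitis was included, so infection and encephalitis cannot be told apart. In whole tissue, fewer cells of a type and less RNA per cell cannot be told apart either. All values are log2 signals, so a difference of 1 is 2-fold, and the median probe set lay at 5.65.

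All 5 measured markers of hippocampal neurons (PROX1, ZBTB20, WFS1, NEUROD6 and ETV1) reached the median probe set level, and all 5 markers of monoaminergic and cholinergic cell bodies (TH, TPH2, DBH, CHAT and FEV) stayed below it in both groups. SIVE 2, SIVE 3 and Control 8 had a 3′ minus 5′ signal difference of control transcripts, a reading of how far RNA or its labelled copies are shortened, of 0.955 to 1.45 against 0.104 to 0.466 in the other 15 animals. All 3 carry the anti-CD8 label. This difference was 0.442 ± 0.374 in SIVE animals and 0.415 ± 0.394 in controls (SD, n = 9 each, exact two-sided permutation p = 0.917). Over the transporter genes, the SD of duplicate arrays had a median of 0.136, against a median SD of 0.225 between animals of a group. For 21 of the 54 genes the widest gap between duplicates was in Control 9. An array has no read depth, so the precision of a value rests on the number of animals and on the spread between animals and between arrays.

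Few transporter genes differed between SIVE and control hippocampus. The astrocyte glutamate transporter SLC1A2, the cystine and glutamate exchanger SLC7A11 and the taurine transporter SLC6A6 were lower in SIVE, and the cationic amino acid exchanger SLC7A7 and the glutamine transporter family member SLC38A6 were higher. These 5 of 54 genes (9.26%) passed an adjusted p of 0.05 in limma, against 7.23 percent of the 14132 named genes and 4.92 percent of all probe sets. By direction, 2 transporter genes (3.70%) were higher, against 5.72 percent of named genes, and 3 (5.56%) were lower, against 1.51 percent. With each array centred on the common median, 3 were higher and 2 lower, because SLC1A5 passed and SLC6A6 did not. The difference was positive in 14 of the 54 genes and negative in 40 (20 and 34 after that centring), with a median of -0.07 against -0.02 over all named genes.

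**Figure D1:**
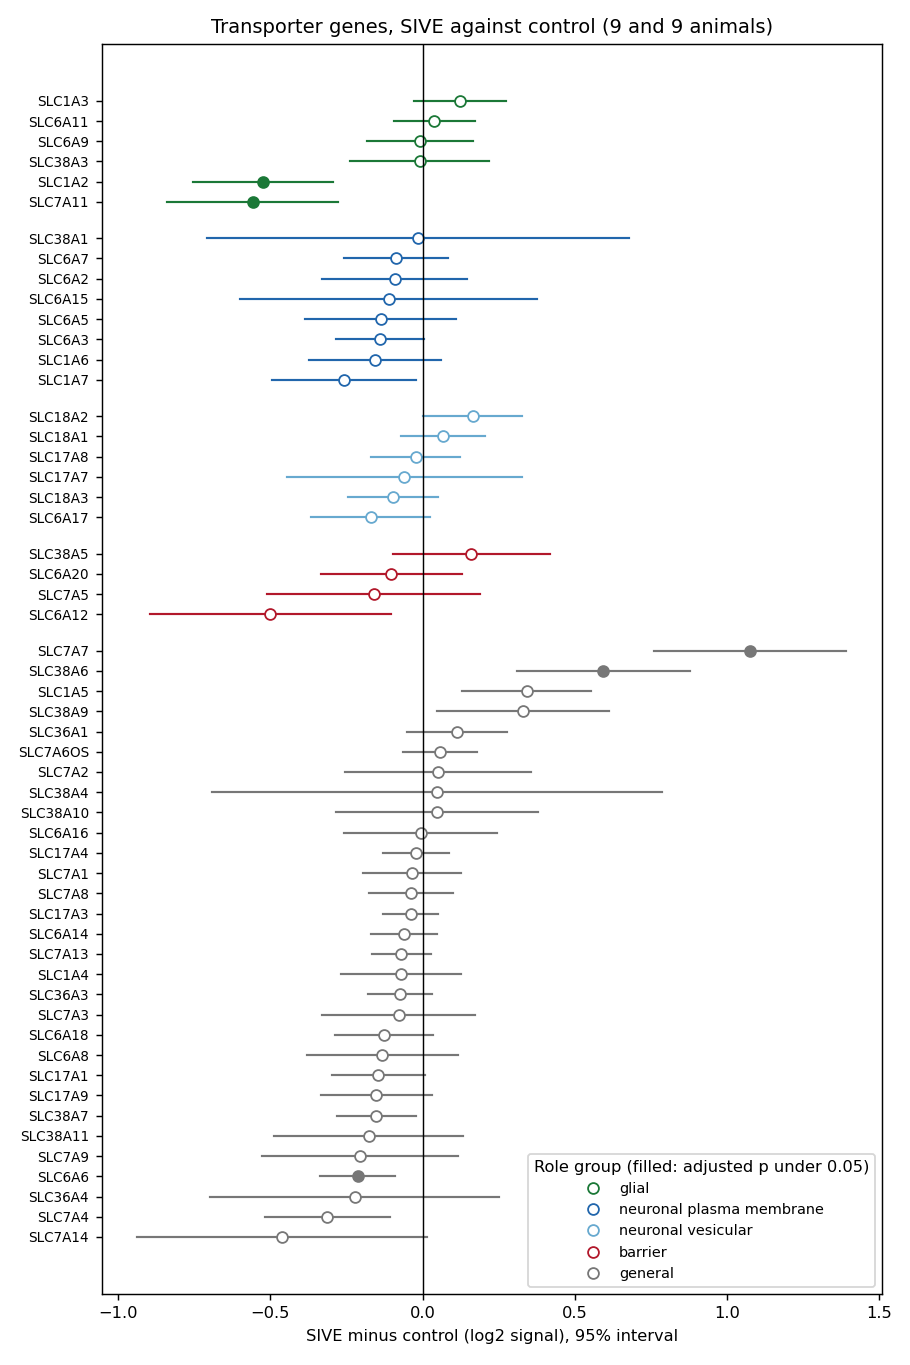
Difference between SIVE and control animals (log2 signal, points) with its 95% interval (lines) for all 54 transporter genes, grouped by role, with 9 animals a group. Filled points passed an adjusted p of 0.05, and these are SLC1A2 and SLC7A11 among the glial genes and SLC7A7, SLC38A6 and SLC6A6 among the general ones.

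SLC7A7 was the only gene at least 2-fold different and the only one whose groups did not overlap (1.84 percent of named genes had all SIVE animals above all controls and 0.106 percent all below). For the 49 genes that did not pass, the 95% interval of the difference lay within -1 to 1 in all 49 and within -0.5 to 0.5, a 1.41-fold change, in 38. The half-width of that interval over the 54 genes had a median of 0.21 and went up to 0.74. Of the 54 genes, 14 lay below the median level in both groups, and none of the 5 called genes was among them. SLC38A6 reached that level by its SIVE mean alone.

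Among the 6 glial transporters, 2 fell, none rose and 4 did not pass, where 1.51 percent of all named genes fell and 5.72 percent rose. SLC1A2, also called GLT-1 or EAAT2, had a log2 signal of 11.11 to 11.92 in SIVE animals, with a median of 11.70, and of 11.92 to 12.56 in controls, with a median of 12.20. The groups met at a single point: 8 SIVE animals lay below all controls, and the ninth, SIVE 3, lay level with the lowest control, Control 4. The mean was 11.62 ± 0.28 in SIVE and 12.15 ± 0.20 in controls (SD, n = 9 each). The difference of -0.52 ± 0.11 (SE) corresponds to 1.44-fold less in SIVE (limma adjusted p = 0.00613), and all 9 SIVE animals lay below the control median. Duplicate arrays agreed most closely for this gene, with an SD of 0.0403.

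SLC7A11, also called xCT, read 8.66 to 9.62 in SIVE animals, with a median of 8.94, and 9.16 to 9.98 in controls, with a median of 9.59. In this gene 6 SIVE animals lay below all controls, while SIVE 4, SIVE 6 and SIVE 9 lay among them. Its mean was 9.05 ± 0.33 in SIVE and 9.61 ± 0.26 in controls (SD, n = 9 each), a difference of -0.56 ± 0.13 (SE), or 1.47-fold less (limma adjusted p = 0.0175). Without SIVE 2, SIVE 3 and Control 8, the animals of high 3′ signal, it was -0.45 with an adjusted p of 0.0635 in limma. Its second probe set is dim, at 4.21 in SIVE and 4.28 in controls, and differed by -0.07 (limma adjusted p = 0.473).

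The other 4 glial genes did not pass. SLC1A3, or GLAST, the second glutamate transporter of astrocytes, read 11.67 to 12.12 in SIVE animals, with a median of 11.96, and 11.49 to 11.99 in controls, with a median of 11.82. Its difference of 0.12 ± 0.07 (SE) had the opposite sign to that of SLC1A2 and did not pass (limma adjusted p = 0.334; 95% interval -0.03 to 0.28), but it passed at 0.18 with the anti-CD8 label as a covariate (adjusted p = 0.0465). Its second probe set differed by 0.15 ± 0.38. The glycine transporter SLC6A9 averaged 5.72 ± 0.16 in SIVE and 5.73 ± 0.19 in controls, the GABA transporter SLC6A11 6.25 ± 0.15 and 6.21 ± 0.10, and the glutamine transporter SLC38A3 7.12 ± 0.23 and 7.13 ± 0.25 (SD, n = 9 each). Their differences were -0.01, 0.04 and -0.01, with 95% intervals no wider than -0.24 to 0.22.

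**Figure D2:**
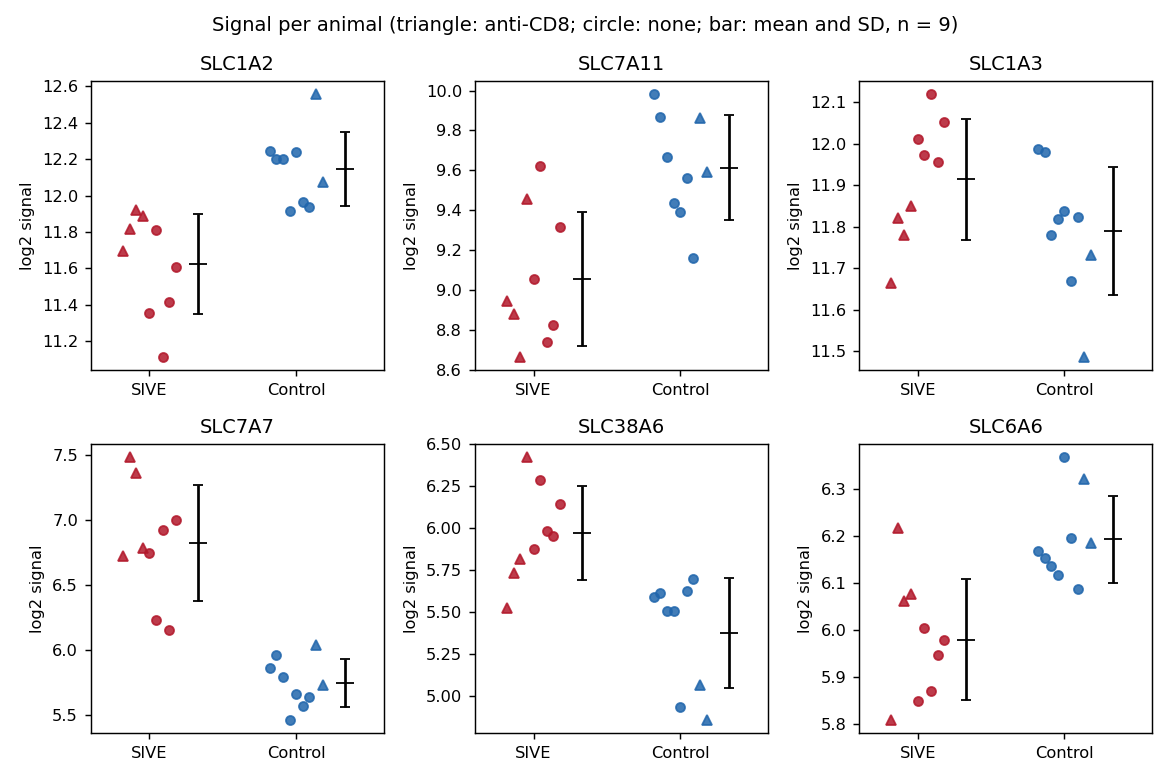
Log2 signal of 6 transporter genes in each animal, with triangles for animals given anti-CD8, circles for untreated ones and bars for the group mean and SD (n = 9). SLC1A2, SLC7A11 and SLC6A6 are lower in SIVE with some overlap, SLC38A6 is higher with some overlap, SLC7A7 separates the groups, and SLC1A3 overlaps widely.

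SLC1A2 and SLC7A11 were then set against other glial genes within the same animal. This was done after their differences were known, in 12 exact two-sided permutation tests on the difference between a pair of log2 signals, with adjusted p over the 12. The other glial genes had not passed, so these tests largely repeat the first calls and are no separate support. Signals of different probe sets have no common scale, so only the change of such a difference between the groups is read. SLC1A2 minus SLC1A3 was lower in SIVE by -0.65 ± 0.16 (SE, permutation adjusted p = 0.00074), and 8 SIVE animals lay below all controls. Against SLC6A9, SLC6A11 and SLC38A3 the changes of SLC1A2 were -0.51 ± 0.14, -0.56 ± 0.14 and -0.51 ± 0.11 (permutation adjusted p of 0.00395, 0.00111 and 0.000987). SLC7A11 fell against the same 4 genes by -0.68 ± 0.15, -0.55 ± 0.19, -0.60 ± 0.14 and -0.55 ± 0.18 (permutation adjusted p of 0.00168, 0.0161, 0.0024 and 0.0121). SLC1A2 minus SLC7A11 differed between the groups by only 0.03 ± 0.14 (permutation adjusted p = 0.804). With the probe sets of a gene averaged, SLC1A2 against SLC1A3 kept its size at -0.66 but no longer passed (permutation adjusted p = 0.061). SLC7A11 then shrank to -0.45 against SLC1A3 and to -0.31 against both SLC6A9 and SLC38A3, and these no longer passed either (permutation adjusted p of 0.0623, 0.0563 and 0.0563).

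No measured astrocyte marker passed as lower in SIVE. Of the 6 measured of 8 listed, GFAP, the intermediate filament of reactive astrocytes, was higher by 0.36 ± 0.08 (SE, limma adjusted p = 0.0129) and GJB6, ALDH1L1, SOX9, FGFR3 and S100B did not pass, with a median of -0.04 over the 6. GJB6, an astrocyte gap junction protein, was the most negative, at -0.48 ± 0.19 (SE, limma adjusted p = 0.155). The mean signal of these 6 was 9.65 to 10.14 in SIVE animals and 9.73 to 10.18 in controls. SLC1A2 minus this mean was 1.66 ± 0.20 in SIVE and 2.13 ± 0.14 in controls (SD, n = 9 each), and all 9 SIVE animals lay below all 9 controls. The change of -0.47 ± 0.08 (SE) had an exact permutation p of 4.11e-05, the smallest this design can give, and an adjusted p of 0.000494. SLC1A2 was chosen after it was called lower, and the marker mean differed by only -0.05, so this change largely repeats that call. How many named genes would separate from this mean in the same way was not counted. For SLC7A11 the change against the same mean was -0.51 ± 0.12 (SE, permutation adjusted p = 0.0023), with 6 SIVE animals below all controls.

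**Figure D3:**
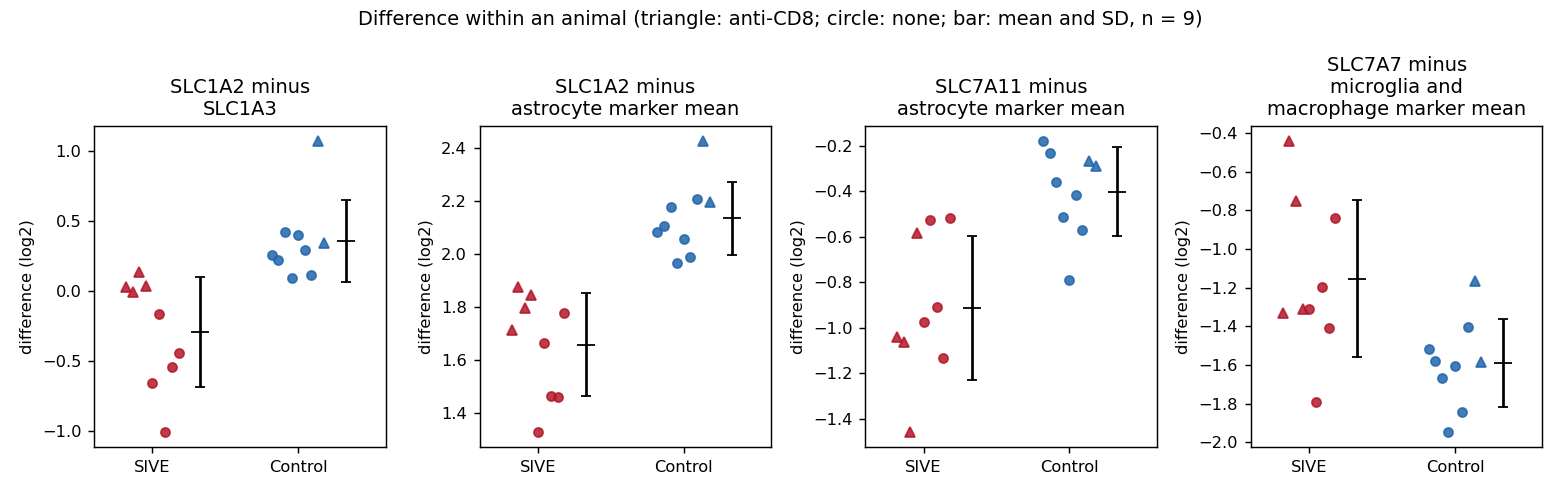
Differences between log2 signals within each animal, with triangles for anti-CD8, circles for none and bars for the mean and SD (n = 9). SLC1A2 minus the astrocyte marker mean is lower in all 9 SIVE animals than in any control, while the other 3 differences overlap between the groups.

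No neuronal transporter passed. All 8 neuronal genes of the plasma membrane had negative differences, from -0.26 to -0.01, with a median of -0.12 against -0.02 over all named genes. Split by treatment, 2 were positive and 6 negative without anti-CD8, and again 2 and 6 with it. The glutamine transporter SLC38A1, which feeds transmitter synthesis, read 4.87 to 7.40 in SIVE animals, with a median of 6.46, and 4.62 to 7.23 in controls, with a median of 6.40. Its difference of -0.01 ± 0.33 (SE, limma adjusted p = 0.987) has a 95% interval of -0.71 to 0.68, so a change of moderate size was not detectable with these animals. SIVE 2, SIVE 3 and Control 8 lay at 4.62 to 5.01 and the other 15 animals at 5.91 to 7.40. The same 3 animals also lay below all others in SLC36A4, SLC38A11, SLC38A4, SLC6A15 and SLC7A1 and above all others in SLC38A10, none of which passed.

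The other neuronal genes of this group take up monoamines, glycine, proline, neutral amino acids or glutamate. The dopamine transporter SLC6A3 differed by -0.14 ± 0.07, the norepinephrine transporter SLC6A2 by -0.09 ± 0.11, the glycine transporter SLC6A5 by -0.14 ± 0.12, the proline transporter SLC6A7 by -0.09 ± 0.08 and the neutral amino acid transporter SLC6A15 by -0.11 ± 0.23 (SE). SLC6A2 and SLC6A5 were dim, below the median level in both groups. The neuronal glutamate transporters SLC1A6 and SLC1A7 differed by -0.16 ± 0.10 and -0.26 ± 0.11 (SE, limma adjusted p of 0.394 and 0.196). In Control 9 the duplicate arrays were 1.08 apart for SLC1A7 and 1.46 apart for SLC6A5.

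Of the 6 vesicular transporters none passed, and their differences ran from -0.17 to 0.16. SLC17A7, or VGLUT1, which fills the vesicles of most excitatory synapses of the hippocampus, averaged 9.56 ± 0.47 in SIVE and 9.62 ± 0.36 in controls (SD, n = 9 each). It read 8.97 to 10.47 in SIVE animals and 9.18 to 10.35 in controls, and the difference of -0.06 ± 0.18 (SE, limma adjusted p = 0.887) has a 95% interval of -0.45 to 0.33. SLC17A8, or VGLUT3, was dim at 3.74 ± 0.10 in SIVE and 3.76 ± 0.18 in controls. The monoamine transporter SLC18A2 averaged 5.79 ± 0.19 in SIVE and 5.63 ± 0.13 in controls, a difference of 0.16 ± 0.08 (SE, limma adjusted p = 0.232), and the acetylcholine transporter SLC18A3 5.49 ± 0.14 and 5.59 ± 0.15, a difference of -0.10 ± 0.07 (adjusted p = 0.44). SLC6A17, which loads neutral amino acids into vesicles, and SLC18A1, the other monoamine transporter, differed by -0.17 ± 0.09 and 0.07 ± 0.07 (SE).

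Neuron markers give little beside these values, since only 2 of 8 listed were measured. TUBB3, a neuronal tubulin, was lower by -0.51 ± 0.12 (SE, limma adjusted p = 0.0118) and STMN2 did not pass. None of the 5 measured hippocampal neuron markers (9 listed) and none of the 5 measured inhibitory neuron markers (8 listed, median -0.19) passed. Of 3 measured oligodendrocyte markers (8 listed), MBP and UGT8 fell, by 0.32 and 0.58 (limma adjusted p of 0.00897 and 0.0173), where 1.51 percent of all named genes fell. Their part in the transporter values was not tested.

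The transporters of blood and fluid barriers did not pass either. SLC7A5, or LAT1, which brings large neutral amino acids through brain endothelium, read 5.84 to 6.71 in SIVE animals, with a median of 6.40, and 5.82 to 7.01 in controls, with a median of 6.49. Its difference was -0.16 ± 0.17 (SE, limma adjusted p = 0.61). SLC6A12, a betaine and GABA transporter, averaged 6.91 ± 0.44 in SIVE and 7.41 ± 0.42 in controls (SD, n = 9 each), a difference of -0.50 ± 0.19 (SE, limma adjusted p = 0.139) with a 95% interval of -0.90 to -0.10. It passed as lower under 5 of 30 alternatives, namely without SIVE 2, SIVE 3 and Control 8, with the 3′ signal or the anti-CD8 label as a covariate, with the animal as a random block over 36 arrays, and with array weights. SLC38A5, a glutamine transporter, differed by 0.16 ± 0.12 and the proline transporter SLC6A20, which is dim, by -0.10 ± 0.11 (SE). In the same tissue 3 of 6 measured endothelial and pericyte markers rose, where 5.72 percent of all named genes did. These were PECAM1 by 0.83 ± 0.18, VWF by 0.98 ± 0.24 and CDH5 by 0.52 ± 0.12 (SE, limma adjusted p of 0.00896, 0.0228 and 0.0165). The mean signal of the 6 was 7.26 to 8.24 in SIVE animals and 7.04 to 7.86 in controls. No measured marker of meninges (7 of 8) or choroid plexus (4 of 7) passed.

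Among the 30 general transporters 2 rose, 1 fell and 27 did not pass, where 5.72 percent of all named genes rose and 1.51 percent fell. SLC7A7, or y+LAT1, exchanges cationic amino acids such as arginine for neutral ones and is used by monocytes and macrophages as well as by gut and kidney. SIVE animals had signals of 6.15 to 7.49, with a median of 6.78, and controls of 5.47 to 6.04, with a median of 5.73. The lowest SIVE animal, SIVE 8, lay above the highest control, Control 8, and the highest SIVE animals were SIVE 2 and SIVE 3. The mean was 6.83 ± 0.45 in SIVE and 5.75 ± 0.19 in controls (SD, n = 9 each), a difference of 1.08 ± 0.15 (SE), or 2.11-fold more (limma adjusted p = 0.000104). Its second probe set differed by 1.09 ± 0.10 (limma adjusted p = 5.13e-07).

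Of the 9 measured markers of microglia and macrophages (10 listed), 4 rose and 5 did not pass, where 5.72 percent of all named genes rose. LYZ, PTPRC, CD14 and AIF1 rose by 2.71 ± 0.30, 1.52 ± 0.16, 1.18 ± 0.22 and 0.83 ± 0.17 (SE, limma), and the median of the 9 was 0.45. The other 5 were CSF1R at 0.45, CD68 at -0.05, ITGAM at -0.35, and P2RY12 and TMEM119, markers of resting microglia, at -0.44 ± 0.46 and -0.10 ± 0.11 (SE). How many sets of 9 genes would separate the groups by their mean was not counted. For these 9 markers the mean signal was 7.56 to 8.13 in SIVE animals and 7.04 to 7.54 in controls, with no overlap. SLC7A7 minus that mean was higher in SIVE by 0.44 ± 0.16 (SE, permutation adjusted p = 0.0134), and 3 SIVE animals lay above all controls. SLC7A7 too was chosen for this after its difference was known, and the marker mean itself rose by only 0.64. This change therefore largely repeats the call of SLC7A7 and is no separate support. LYZ, PTPRC and CD14 each rose by more than SLC7A7. No measured T cell marker (3 of 8) passed.

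SLC38A6 belongs to the family of glutamine transporters, and its own cargo is less well described. It read 5.52 to 6.42 in SIVE animals, with a median of 5.95, and 4.86 to 5.70 in controls, with a median of 5.51. Of the SIVE animals 8 lay above all controls and SIVE 1 lay among them, while Control 5, Control 8 and Control 9 lay lowest, at 4.94, 5.06 and 4.86. Its mean was 5.97 ± 0.28 in SIVE and 5.38 ± 0.33 in controls (SD, n = 9 each), a difference of 0.59 ± 0.14 (SE), or 1.51-fold more (limma adjusted p = 0.0122). The duplicate arrays of Control 9 read 5.33 and 4.38. With the second array of each animal alone, the difference was 0.53 and did not pass (adjusted p = 0.0976).

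SLC6A6 takes up taurine, an osmolyte abundant in brain. It read 5.81 to 6.22 in SIVE animals, with a median of 5.98, and 6.09 to 6.37 in controls, with a median of 6.17, and 8 SIVE animals lay below all controls. The mean was 5.98 ± 0.13 in SIVE and 6.19 ± 0.09 in controls (SD, n = 9 each), a difference of -0.21 ± 0.06 (SE), or 1.16-fold less (limma adjusted p = 0.0394). The call is fragile: it was lost under 20 of 30 other settings, among them each array centred on the common median (-0.19, adjusted p = 0.0789) and each of 13 single animals left out. Those 13 were SIVE 1, SIVE 5 to SIVE 9, Control 1, Control 2, Control 3, Control 5, Control 6, Control 8 and Control 9. Its 2 other probe sets, both dimmer, differed by 0.02 and -0.14 and did not pass.

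Some general genes came close without passing. SLC1A5, a glutamine transporter of many dividing and activated cells, averaged 6.62 ± 0.24 in SIVE and 6.27 ± 0.21 in controls (SD, n = 9 each), a difference of 0.34 ± 0.10 (SE, limma adjusted p = 0.0597). SLC7A4, whose transport activity is uncertain, differed by -0.31 ± 0.10 (adjusted p = 0.0777), and the lysosomal arginine sensor SLC38A9 by 0.33 ± 0.14 (adjusted p = 0.172). SLC1A5 passed as higher under 9 of 30 alternatives and SLC7A4 as lower under 8. SLC7A14 had one of the widest spreads, with a difference of -0.46 ± 0.23 (adjusted p = 0.252) and a 95% interval of -0.94 to 0.02. The arginine transporters SLC7A1 and SLC7A2 differed by -0.04 ± 0.08 and 0.05 ± 0.15, the creatine transporter SLC6A8 by -0.13 ± 0.12 and the neutral amino acid transporter SLC1A4 by -0.07 ± 0.09 (SE). By family, SLC1 had 0 of 6 members higher and 1 lower, SLC6 0 of 15 higher and 1 lower, SLC7 1 of 12 higher and 1 lower, and SLC38 1 of 9 higher and 0 lower, while the 6 members of SLC17, 3 of SLC18 and 3 of SLC36 had none in either direction. Over all named genes 5.72 percent were higher and 1.51 percent lower, and these families are too small to be read against that.

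The remaining general genes moved little or were too variable to call. Among the lysosomal transporters, the glutamine carrier SLC38A7 differed by -0.15 ± 0.06, the proton-coupled SLC36A1 by 0.11 ± 0.08 and SLC36A4 by -0.22 ± 0.23 (SE), the last with the 3 animals of high 3′ signal at 6.82 to 7.18 and the other 15 at 8.02 to 8.71. SLC17A9, which loads ATP into vesicles, differed by -0.15 ± 0.09, and SLC7A3, an arginine transporter known from neurons, by -0.08 ± 0.12 (SE). The cystine and cationic amino acid transporter SLC7A9, known from kidney and gut, differed by -0.20 ± 0.15, and the neutral amino acid exchanger SLC7A8, which was dim, by -0.04 ± 0.07. SLC38A4 and SLC38A11 had differences of 0.05 ± 0.35 and -0.18 ± 0.15, and SLC38A10 of 0.05 ± 0.16 (SE). The phosphate and urate transporters SLC17A1, SLC17A3 and SLC17A4, known from kidney, gut and liver, and SLC6A14, SLC36A3 and SLC7A13 all lay below the median probe set level in both groups, with differences between -0.15 and -0.02. SLC6A16 and SLC6A18 differed by -0.01 ± 0.12 and -0.13 ± 0.08, and SLC7A6OS by 0.06 ± 0.06 (SE).

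SLC7A2, the inducible arginine transporter of macrophages and astrocytes, has 5 probe sets with unequal values. Over all animals their differences ran from 0.05 to 0.38 and none passed. In animals without anti-CD8 the third brightest was higher in SIVE by 0.57 ± 0.14 (SE, limma adjusted p = 0.0356), a probe set named here after its values were seen, while the brightest was not called. The sequences these probe sets read are not given in the files used here.

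**Figure D4:**
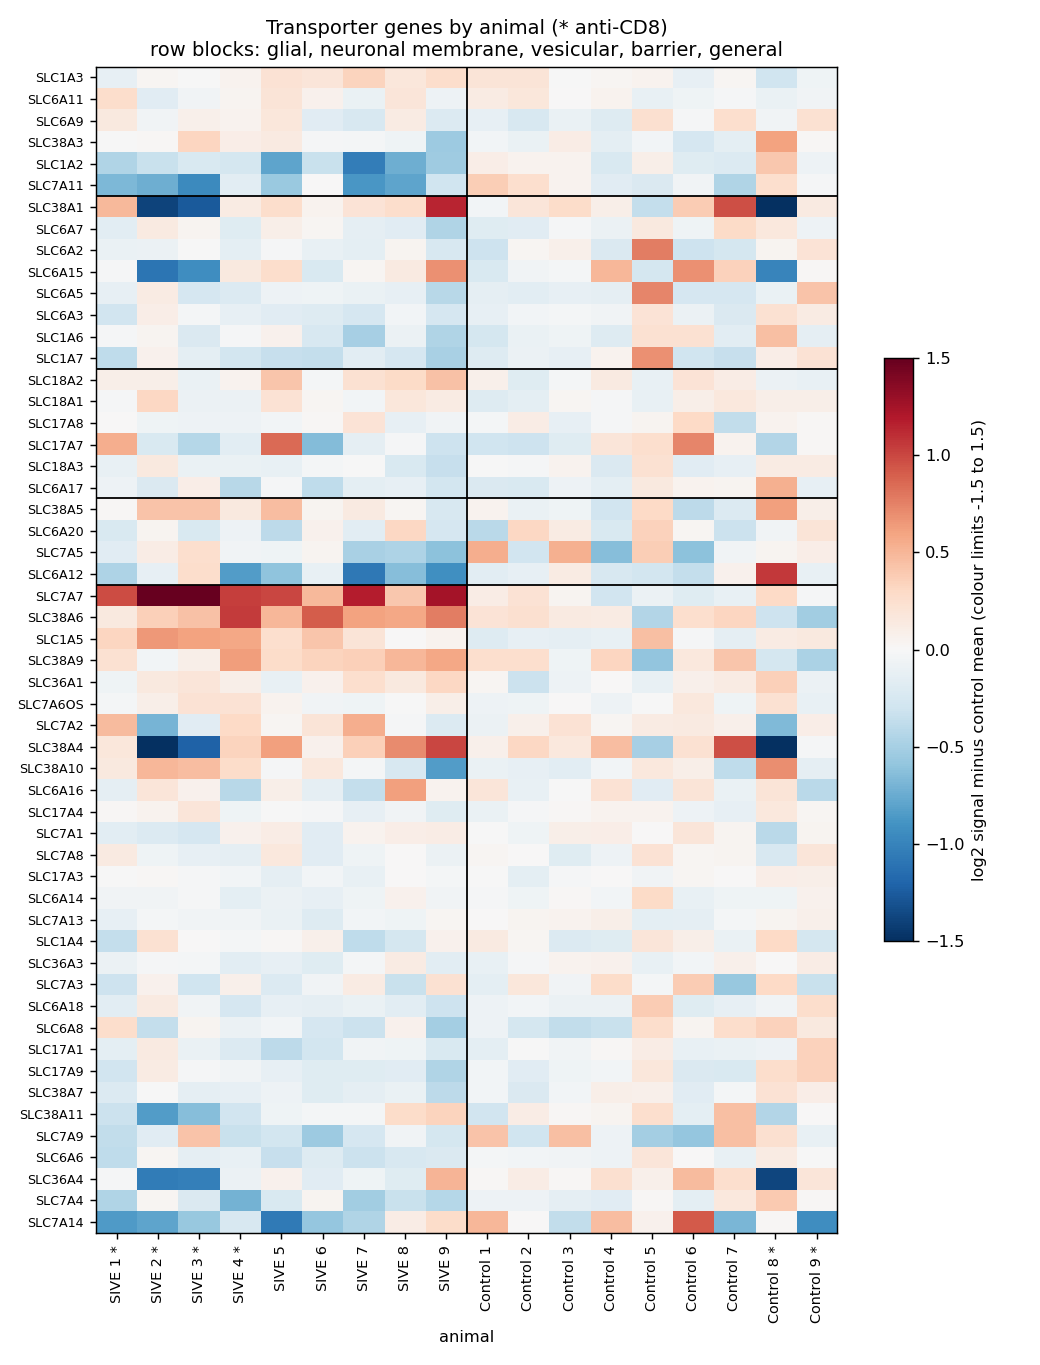
Log2 signal of the 54 transporter genes (down the page, grouped by role) in the 18 animals (across, SIVE left of control, asterisks for anti-CD8), each minus the control mean of the gene. SLC7A7 is above the control mean in all 9 SIVE animals, SLC1A2 is below it in all 9, and SIVE 2, SIVE 3 and Control 8 share low values of SLC38A1, SLC38A4, SLC6A15 and SLC36A4.

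Of the genes measured in the pathway lists around these transporters, some rose and none fell, where 5.72 percent of all named genes were higher and 1.51 percent lower. Of 19 measured genes that make or break down glutamate, GABA, glycine and a few other transmitters (27 listed), 2 rose and none fell, with a median of -0.05. The 2 were GLDC, which breaks down glycine, at 0.39 ± 0.10 (SE, limma adjusted p = 0.0247), and SHMT2, which makes glycine from serine in mitochondria, at 0.32 ± 0.07 (adjusted p = 0.0087). Glutamine synthetase, GLUL, the astrocyte enzyme that follows SLC1A2 in the glutamate cycle, read 11.79 to 12.18 in SIVE animals and 11.71 to 12.29 in controls, a difference of -0.03 ± 0.07 (adjusted p = 0.827). GAD1, which makes GABA, differed by -0.20 (adjusted p = 0.241). Of 14 listed heavy chain partners and associated proteins 7 were measured and none passed. SLC3A2, the heavy chain of SLC7A5, SLC7A7 and SLC7A11, is not analysed here, and KCNJ10, the astrocyte potassium channel, differed by -0.29 ± 0.11 (adjusted p = 0.144).

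The ATF4 and NRF2 stress responses are known to control SLC7A11 and other transporters. Of 13 measured genes of the ATF4 amino acid response (16 listed), 3 rose, none fell and the median was 0.08. These were the transcription factors CEBPB at 0.98 ± 0.11 and DDIT3 at 0.37 ± 0.10 (SE, limma adjusted p = 0.0416) and the stress protein NUPR1 at 1.00 ± 0.21 (adjusted p = 0.00538). The other 10 did not pass, among them ATF4 itself (0.08), the asparagine synthetase ASNS (0.11), the glutathione-degrading CHAC1 (-0.10) and the kinase-like TRIB3 (-0.15). Of 6 measured genes of the NRF2 antioxidant response (12 listed), 1 rose, NFE2L2, the gene of NRF2, by 0.59 ± 0.08 (SE, limma), and its targets GCLM (0.17), GCLC (0.14) and SRXN1 (0.30) did not pass. Of 12 measured genes of arginine and nitric oxide metabolism (13 listed), 3 rose and none fell. They were ASS1, which recycles citrulline to arginine, at 1.23 ± 0.20, ODC1, the first enzyme of polyamine synthesis, at 0.70 ± 0.09, and SAT1, which breaks polyamines down, at 0.33 ± 0.09 (SE, limma). NOS2, the inducible nitric oxide synthase, differed by -0.10 and did not pass.

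Anti-CD8 treatment is spread unequally over the groups, so the comparison was repeated with and without it. In animals without anti-CD8, 5 SIVE and 7 control, 3 of the 54 transporter genes passed, 2 higher and 1 lower, against 4.77 percent of named genes, 3.64 percent higher and 1.13 percent lower. SLC7A7 was higher by 0.90 ± 0.17 (SE, limma adjusted p = 0.00378), SLC38A6 by 0.55 ± 0.15 (adjusted p = 0.0475), and SLC1A2 was lower by -0.64 ± 0.11 (adjusted p = 0.00281). SLC1A2 read 11.11, 11.36, 11.41, 11.61 and 11.81 in these SIVE animals and 11.92 to 12.24, with a median of 12.20, in their controls, with no overlap. In these smaller groups 4 of the 54 genes did not overlap, against 1 over all animals. The share over all named genes was not counted here. The call of SLC38A6 was lost under 18 of 29 other settings, with an adjusted p up to 0.282, and without any 1 of SIVE 2, SIVE 3, SIVE 5 to SIVE 9 or Control 1 to Control 7. SLC7A11 differed by -0.47 ± 0.17 and did not pass (adjusted p = 0.162).

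In animals with anti-CD8, 4 SIVE and 2 control, only SLC7A7 passed, 1 gene higher and 0 lower, against 1.51 percent of named genes, 1.38 percent higher and 0.127 percent lower. SLC7A7 read 6.72, 6.78, 7.36 and 7.49 in these SIVE animals and 5.73 and 6.04 in the controls. Its mean was 7.09 ± 0.39 in SIVE and 5.89 ± 0.22 in controls (SD, n = 4 and 2), a difference of 1.2 ± 0.25 (SE, limma adjusted p = 0.022). The call was lost without SIVE 3, Control 8 or Control 9, with differences of 1.11, 1.36 and 1.05. Leaving out either control leaves a single treated control, which the fit assumes to vary like the other groups. The second probe set differed by 1.08 ± 0.16 (SE, limma adjusted p = 0.000943). SLC38A6 differed by 0.91 ± 0.22 (adjusted p = 0.0504), SLC1A2 by -0.49 ± 0.17 (adjusted p = 0.189) and SLC7A11 by -0.74 ± 0.25 (adjusted p = 0.184). The 4 treated SIVE animals had SLC1A2 at 11.70, 11.82, 11.89 and 11.92, and the controls at 12.07 and 12.56. Among the treated animals, SIVE 2, SIVE 3 and Control 8 are those of high 3′ signal. Control 9 had the widest duplicate gap for 21 of the 54 genes, SLC38A6 among them.

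The SIVE effects with and without anti-CD8 were then tested against each other. None of the 54 genes passed, nor did any of the 52707 probe sets in limma, where 1481 had an unadjusted p under 0.05. With minus without anti-CD8, the effect differed by 0.15 ± 0.20 for SLC1A2, with a 95% interval of -0.28 to 0.58, by -0.27 ± 0.31 for SLC7A11, by 0.30 ± 0.30 for SLC7A7 and by 0.36 ± 0.26 for SLC38A6 (SE). With 2 treated controls these intervals are wide, and treatment and age are tied in the SIVE group, since all 4 treated animals were 6 years old.

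**Figure D5:**
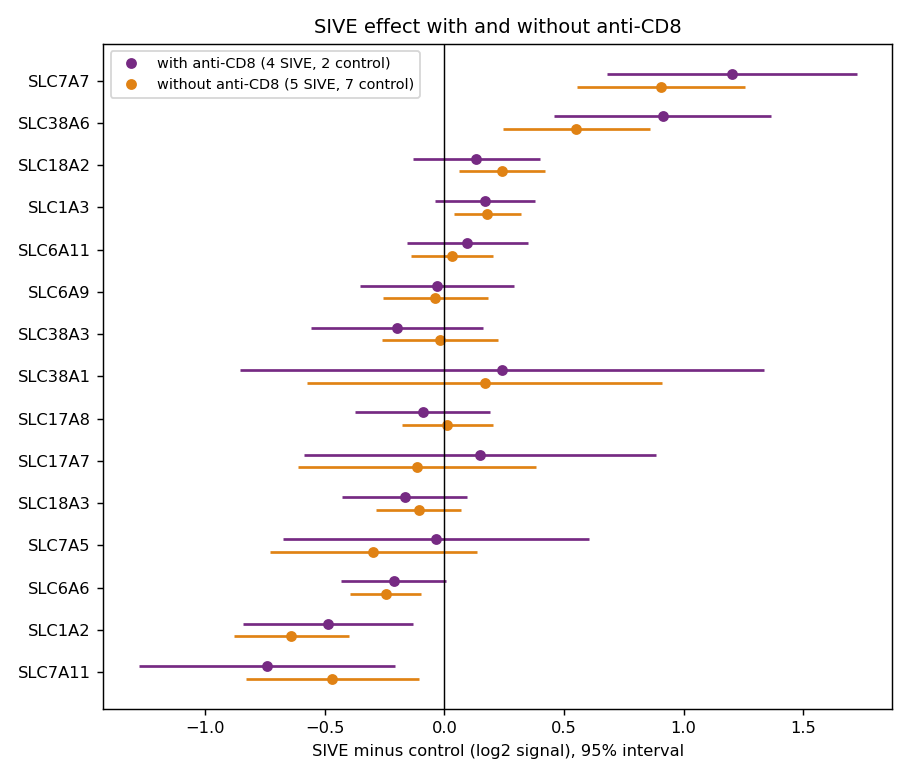
SIVE minus control difference (log2 signal, points) with its 95% interval (lines) for 15 transporter genes, in animals with anti-CD8 (4 SIVE and 2 control) and without it (5 SIVE and 7 control). The intervals of the pair overlap for each gene. Those of SLC7A7 and SLC38A6 lie above 0 and those of SLC1A2 and SLC7A11 below 0 in both, though of these only SLC7A7 passed in both.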

How the data were processed

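Total RNA of hippocampus was labelled and hybridized to Affymetrix rhesus arrays, 2 for each of 18 animals. The deposited values are log2 signals, read from their range of 2.30 to 14.49, which the authors made with the RMA method, as the submitters' processing notes name it, per the labels without a version. Array medians lay between 5.59 and 5.75. Of 52865 probe sets, 158 control and reporter probe sets were left out and 52707 tested. The probe-to-gene table gives 24969 probe sets 1 symbol, 361 several and 27535 none, and all 85 probe sets of the transporter genes kept their symbol in current RefSeq gene names. The labels call duplicate arrays technical replicates, and the design text speaks of duplicate samples.

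The 2 arrays of an animal were averaged and counted as 1 replicate. R 4.3.3 and limma 3.58.1 gave moderated two-sided tests (lmFit, then eBayes), adjusted by Benjamini and Hochberg's method across the 52707 probe sets, and 0.05 was the threshold. For the anti-CD8 comparisons, SIVE and control animals with and without the label had a mean each. Exact permutation tests and figures used Python 3.11.15, scipy 1.17.1, numpy 2.4.6, pandas 2.3.3 and matplotlib 3.10.9. For the 3′ minus 5′ difference, 3 control transcripts were averaged. The fit was checked on simulated data with independent noise for each probe set. Such data lack shifts shared by many probe sets of an animal, so the check does not cover those. The transporter genes, the other gene lists and the tests were chosen with earlier results of these data known. Named with values were transporter genes that passed, 12 core transporters whatever their result, and list members that passed, at most 6 a list with the smallest adjusted p; other genes named as near misses, or as genes of known role that did not pass, were chosen after their values were seen. Alternatives changed the probe set choice, filter, centring, covariates, blocks, weights, arrays and animals.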

Additional observations from a re-analysis of the deposited data

Results flagged for a closer look

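Among the 15 transporter genes named by the rule, each group of 9 animals was checked for an animal standing apart from the rest, 30 groups in all, and 3 had one, where chance alone gives about 1 in 20. SLC17A8 read 3.97 in SIVE 7 against 3.64 to 3.78 in the other SIVE animals. This gene is dim, and its widest gap between duplicate arrays, 0.43, was in SIVE 7 as well, so that value is imprecise. SLC38A3 read 6.59 in SIVE 9 against 7.06 to 7.46 in the other SIVE animals. In Control 8, an animal of high 3′ signal, SLC38A3 read 7.74 against 6.87 to 7.24 in the other controls.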

How the results depend on the processing

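SLC1A2 and SLC7A7 kept their direction and passed under all 30 alternatives to SIVE against control, with limma adjusted p up to 0.0336 and 0.00131. SLC38A6 was lost only with the second arrays alone, SLC7A11 with the replicate number as a block (-0.56, adjusted p = 0.0675) and without SIVE 2, SIVE 3 and Control 8, and SLC6A6 under 20 of 30. No named transporter gene that passed changed sign. The replicate numbers do not pair the animals (correlations of same-numbered animals -0.49 to 0.089, own number best in 0 of 9), and with the replicate block 2 transporter genes were higher and 1 lower, and 0 passed with or without anti-CD8. For SIVE against control (2 higher, 3 lower), 4 were higher and 5 lower with anti-CD8 as a covariate, 5 lower with the 3′ signal as a covariate or array weights, and 1 higher with the second arrays alone. Leaving out single animals gave 2 to 3 higher and 2 to 4 lower. Without anti-CD8 (2 higher, 1 lower), 1 was higher with age as a covariate, the second arrays alone or without the 3 animals, and 4 with weights, while 2 were lower with the 3′ signal as a covariate and 3 with the animal as a random block, weights or without the 3 animals. Single animals left out gave 1 to 2 higher and 1 to 2 lower. With anti-CD8 (1 higher, 0 lower), 0 were higher with age, weights or without the 3 animals, 2 were higher with averaged probe sets, the filter, centring, the 3′ signal, the second arrays or the random block, which also gave 3 lower, and single animals left out gave 0 to 2 higher. Causes of these moves were not tested. Over all 52707 probe sets, 1912 were higher and 683 lower, 1204 and 164 with the block, 2159 and 398 after centring, 2872 and 1966 with the 3′ signal, 2509 and 2785 with anti-CD8, 3114 and 2652 with weights, 1504 and 317 with the second arrays alone, 2062 and 1414 with the first, 2587 and 987 with the random block, and 2508 and 1301 without the 3 animals. Among named genes, the background of the transporter counts, 809 were higher and 213 lower, against 918 and 133 after centring, 1059 and 834 with anti-CD8 and 1343 and 702 with weights. Without anti-CD8, 1235 probe sets were higher and 417 lower, against 504 and 27 with the block and 2319 and 2109 with weights, and with anti-CD8, 445 and 110, against 10 and 2 with the block, 180 and 7 with age and 135 and 0 with weights. The difference between the 2 effects had 0 calls in these fits except 2 lower probe sets with the block. Of the comparisons within an animal, SLC7A11 against SLC6A9 also no longer passed without the 3 animals (permutation adjusted p = 0.0834).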
